A study of Mus musculus with 8 samples.

Results

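The genes described here encode the enzymes that take glucose to pyruvate, the enzymes and carriers that exchange pyruvate with lactate, and the pyruvate dehydrogenase complex with its kinases and phosphatases. A list of 39 such genes was drawn up by function, out of 22180 genes that the arrays measured with a probe set of their own. Of the 39, 34 had a probe set annotated to that gene alone. Aldoa was read only by a probe set shared with its retrogene Aldoart1, and Gpi1, Pfkfb1, Eno1 and Mpc2 were not analysed here. A gene was tested if it lay above 2.88 log2, the dim limit, in at least 3 of 8 arrays, which 33 of the 34 did. Hk3, the hexokinase of myeloid cells, did not, with 0 of 3 WT arrays and 2 of 5 Abhd15 KO arrays above it. Of the 33 tested genes, 30 lay above the limit in all 8 arrays, and Pgam2, Eno2 and Slc16a3 did so in 6, 6 and 5 arrays.

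Glycolysis splits glucose into pyruvate in the cytosol and is paced at hexokinase, phosphofructokinase and pyruvate kinase. Pyruvate is then reduced to lactate, or enters mitochondria through a carrier made of MPC1 and MPC2 and is turned into acetyl-CoA by pyruvate dehydrogenase, which kinases switch off and phosphatases switch on. Brown fat takes up much glucose when it makes heat and after feeding, when insulin acts on it. Several steps have muscle isoforms encoded by separate genes, among them Pfkm, Pgam2 and Eno3, and skeletal muscle lies beside the interscapular brown fat pad.

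Brown adipose tissue (BAT) was taken from male C57BL/6J mice, 3 wild type (WT) and 5 Abhd15 KO, each on its own Affymetrix Mouse Gene 2.0 ST array. The mice were 14 weeks old and on normal chow, had been fasted overnight and were fed chow again for 1 h, and 200 ng of total RNA per mouse was labelled. The labels give Abhd15 KO with no further description of the allele, and do not say that mice of a group came from separate litters, so the p-values measure the spread between these mice. The arrays labelled Abhd15 KO did not read lower in Abhd15 itself, at 6.12 ± 0.27 log2 (SD, n = 5) against 6.01 ± 0.19 in WT (n = 3, exact two-sided permutation p = 0.518). Which part of the gene was deleted was not known here, so this probe set checks nothing and every group below is the group as labelled.

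Brown adipocyte genes marked every array: all 10 of the list, Ucp1 and Cidea among them, lay above the dim limit throughout, and their mean lay between 10.31 and 10.52 log2 in WT and between 10.09 and 10.71 in Abhd15 KO. Single genes of this list spanned 0.12 to 3.85 log2. Abhd15 KO replicate 3 was lowest in Dio2, at 4.47, and in Elovl3, at 9.44. The patterns followed here, that of Angptl8 and that of muscle genes, both cut across the labels. Angptl8, a feeding-induced secreted protein, read 7.95 in WT replicate 2 and 7.90 in Abhd15 KO replicate 1 and between 10.42 and 10.81 in the other 6 arrays. The mean of 15 skeletal muscle genes, such as Acta1 and Myh4, was lowest in Abhd15 KO replicate 2 and, in WT, in replicate 3. For the members these arrays move most, values without them stand beside the result.

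Muscle transcripts were measured in every sample and differed widely between mice of the same label. The mean of the 15 muscle genes stood at 8.39, 7.34 and 5.48 log2 in the WT arrays and at 6.73, 4.76, 6.31, 7.60 and 6.94 in the Abhd15 KO arrays, by replicate number. All 15 were tested, 13 lay above the dim limit in all arrays, and single genes spanned 2.92 to 4.73 log2. All 15 had a lower mean in Abhd15 KO, with a median difference of −0.55, and 0 of them passed the test. In bulk tissue, fewer cells of a type and less RNA per cell cannot be told apart. The members were therefore set against this muscle mean first, with each group's mean removed from both, and a Pearson r of 0.8 or more over the 8 arrays was taken as following muscle.

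Eno3, the enolase of muscle, followed the muscle genes most closely. It gave 8.61, 7.75 and 5.87 log2 across the WT arrays and 7.34, 5.44, 6.99, 7.58 and 6.96 across the Abhd15 KO arrays, in replicate order. The arrays low in muscle genes, Abhd15 KO replicate 2 and WT replicate 3, were the lowest, and the groups overlapped over most of their span. Its r was 0.974 (permutation p = 0.000794, adjusted to 0.0262 over the 33 members) and its Spearman rho 0.810 (permutation p = 0.0218, adjusted to 0.359). These permutations reordered the deviations over all 8 arrays, across the groups. Deviations from group means are not freely exchangeable between groups, so the p-values of r and rho are approximate. With group means removed, the 2 arrays farthest from the median in the muscle mean were again WT replicate 3 and Abhd15 KO replicate 2. Without these its r was 0.857. Here and below, that r keeps the group means of all 8 arrays, which include the 2 left out. Eno3 changed by 0.85 log2 for each log2 of the muscle mean.

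Pgam2, the phosphoglycerate mutase of muscle, did not reach the limit of 0.8 and was kept with the muscle isoforms by name, as was Pfkm. It had WT values of 4.52, 4.09 and 2.79 and Abhd15 KO values of 3.98, 2.61, 3.04, 2.90 and 3.24, in replicate order. It lay under the dim limit in WT replicate 3 and Abhd15 KO replicate 2, and Abhd15 KO replicate 4 was low although its muscle mean was the second highest of all arrays. Its r was 0.728 (permutation p = 0.0407, adjusted 0.336) and its rho 0.548 (permutation p = 0.171, adjusted 0.705). The r fell to 0.131 without the 2 farthest arrays, so the relation rests on those arrays.

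Pfkm, the phosphofructokinase of muscle, stood at 6.82, 7.25 and 6.24 in the WT arrays and at 6.56, 6.23, 6.47, 7.06 and 6.55 in the Abhd15 KO arrays, by replicate number. Its highest array was WT replicate 2, not the array highest in muscle genes. It also missed the limit: its r was 0.779 (permutation p = 0.0260, adjusted 0.286) and its rho 0.810 (permutation p = 0.0218, adjusted 0.359). Without the 2 farthest arrays its r was 0.357. Pfkm moved by 0.25 log2 per log2 of the muscle mean.

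Pgam1, the widely expressed phosphoglycerate mutase, also passed the limit of 0.8, but over a far smaller span. It gave 8.64, 8.68 and 8.40 across the WT arrays and 8.60, 8.50, 8.66, 8.65 and 8.62 across the Abhd15 KO arrays, in replicate order, a range of 0.28 log2 against 3.17 for Eno3. WT replicate 3 and Abhd15 KO replicate 2 were its lowest arrays. Its r was 0.834 (permutation p = 0.0163, adjusted 0.269) and its rho 0.643 (permutation p = 0.0962, adjusted 0.705). Without the 2 farthest arrays r was 0.0973, and a dimmer Pgam1 probe set had an r of 0.0317. Thus 2 of 33 members passed the limit, 6.06%, beside 2.37% of the 13208 tested genes outside the muscle list, members included. Of the 33 relations tested, 1, that of Eno3, passed after adjustment, by the approximate p of r and not by that of rho.

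**Figure D1:**
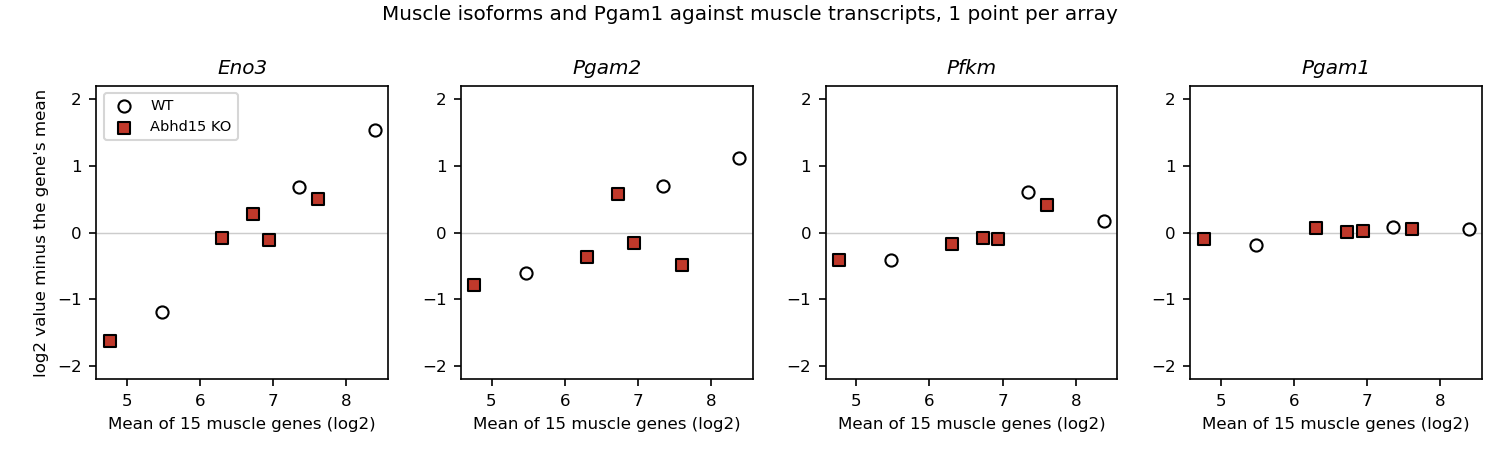
Each panel plots a gene's log2 value minus its mean over 8 arrays against the mean of 15 muscle genes (log2), with WT as open circles and Abhd15 KO as filled squares. Eno3 rises with the muscle mean over a range of 3.17 log2, Pgam2 and Pfkm do so less regularly, and Pgam1 spans 0.28 log2.

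The promoter windows of Eno3, Pgam2 and Pgam1 are shown because the first encode muscle isoforms and the last the widely expressed mutase. Each holds 250 bases before and 50 bases after the gene's start, from RefSeq on GRCm38.p6, read 5′ to 3′ on the gene's strand. Capitals mark every E-box, CANNTG, the letters that muscle regulatory factors of the MyoD family bind. The windows lie at chr11:70656926-70657225 (plus strand), chr11:5803747-5804046 (minus strand) and chr19:41911621-41911920 (plus strand).
Eno3: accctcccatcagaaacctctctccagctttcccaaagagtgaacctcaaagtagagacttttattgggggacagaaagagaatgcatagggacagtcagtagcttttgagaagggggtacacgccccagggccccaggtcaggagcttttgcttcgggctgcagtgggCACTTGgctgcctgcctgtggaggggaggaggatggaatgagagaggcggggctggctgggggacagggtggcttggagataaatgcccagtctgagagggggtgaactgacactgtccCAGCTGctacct
Pgam2: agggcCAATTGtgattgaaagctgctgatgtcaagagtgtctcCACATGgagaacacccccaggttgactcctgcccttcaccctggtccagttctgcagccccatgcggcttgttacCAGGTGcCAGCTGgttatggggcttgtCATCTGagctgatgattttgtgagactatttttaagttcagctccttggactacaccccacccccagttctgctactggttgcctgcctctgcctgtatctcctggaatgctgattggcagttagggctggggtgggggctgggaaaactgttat
Pgam1: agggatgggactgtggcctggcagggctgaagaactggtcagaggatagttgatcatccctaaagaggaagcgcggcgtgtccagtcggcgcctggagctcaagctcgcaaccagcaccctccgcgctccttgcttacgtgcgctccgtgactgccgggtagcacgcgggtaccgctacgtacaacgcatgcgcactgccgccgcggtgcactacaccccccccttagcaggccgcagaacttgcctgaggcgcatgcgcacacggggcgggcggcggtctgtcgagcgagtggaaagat
These windows hold 2, 5 and 0 E-boxes. The letters are common: 72.3% of 32851 windows in the table, and 75% of genes with any window, hold at least 1, as do 28 of 38 listed genes with a window. A search for a MEF2 motif, on both strands like the others, matched 0 of the 38 and 0.636% of all genes. Its exact letters are not stated here, and it did not count ctatttttaa in the Pgam2 window. The 0 matches therefore do not show that these windows lack a MEF2 site. Motif matches describe the letters and do not show binding.

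WT and Abhd15 KO were then compared to ask which of these transcripts differ in brown fat of the mice labelled Abhd15 KO shortly after feeding. With limma, 0 of 33 members passed an adjusted p of 0.05 (smallest adjusted p 0.9997), as did 0 of all 13223 tested genes (0%). At an unadjusted p under 0.05 there were 0 members, where 3.99% of all tested genes lay, 2.23% higher and 1.76% lower in Abhd15 KO. The groups did not overlap in 0 members and in 2.77% of all tested genes, with 1.58% higher and 1.19% lower in Abhd15 KO. Differences are given as Abhd15 KO minus WT in log2 units with 95% confidence intervals from the fit. Of the 33, 20 differences were above 0, beside 51.7% of all tested genes, and the median half-width of their intervals was 0.33. In 22 members the interval lay within 0.5 log2 on either side of 0, and in 30 within 1 log2. Pgam2, Eno3 and Hk2 were the exceptions to the latter.

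The muscle isoforms had the 3 most negative differences of all members, with intervals among the widest. Pgam2 read 3.80 ± 0.90 in WT and 3.16 ± 0.51 in Abhd15 KO (SD, n = 3 and 5), a difference of −0.64 (−1.55 to 0.26). Eno3 read 7.41 ± 1.40 and 6.86 ± 0.84, a difference of −0.55 (−1.96 to 0.87), and Pfkm 6.77 ± 0.51 and 6.58 ± 0.30, a difference of −0.19 (−0.74 to 0.35). The exact two-sided permutation test, whose smallest possible p here is 0.0179, gave p = 0.286, 0.518 and 0.482. Pgam1 differed by 0.03 (−0.21 to 0.27).

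The muscle mean itself moved in the same direction, at 7.07 ± 1.47 in WT and 6.47 ± 1.06 in Abhd15 KO. With that mean as a covariate, Eno3 differed by −0.04 (−0.46 to 0.38), Pfkm by −0.05 (−0.46 to 0.37) and Pgam2 by −0.40 (−1.11 to 0.30). In that fit 0 members had an unadjusted p under 0.05, beside 4.39% of all tested genes. Single arrays decided these values. Without WT replicate 3 the differences of Pgam2 and Eno3 were −1.15 and −1.32, both at an unadjusted p under 0.05 in limma (4.52% of all genes tested in that fit) and neither past the adjusted threshold. Without WT replicate 1 they were −0.28 and 0.05, and Eno3 differed by −0.19 without Abhd15 KO replicate 2. Pfkm differed by 0.05 without WT replicate 2 and by −0.46 without WT replicate 3.

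**Figure D2:**
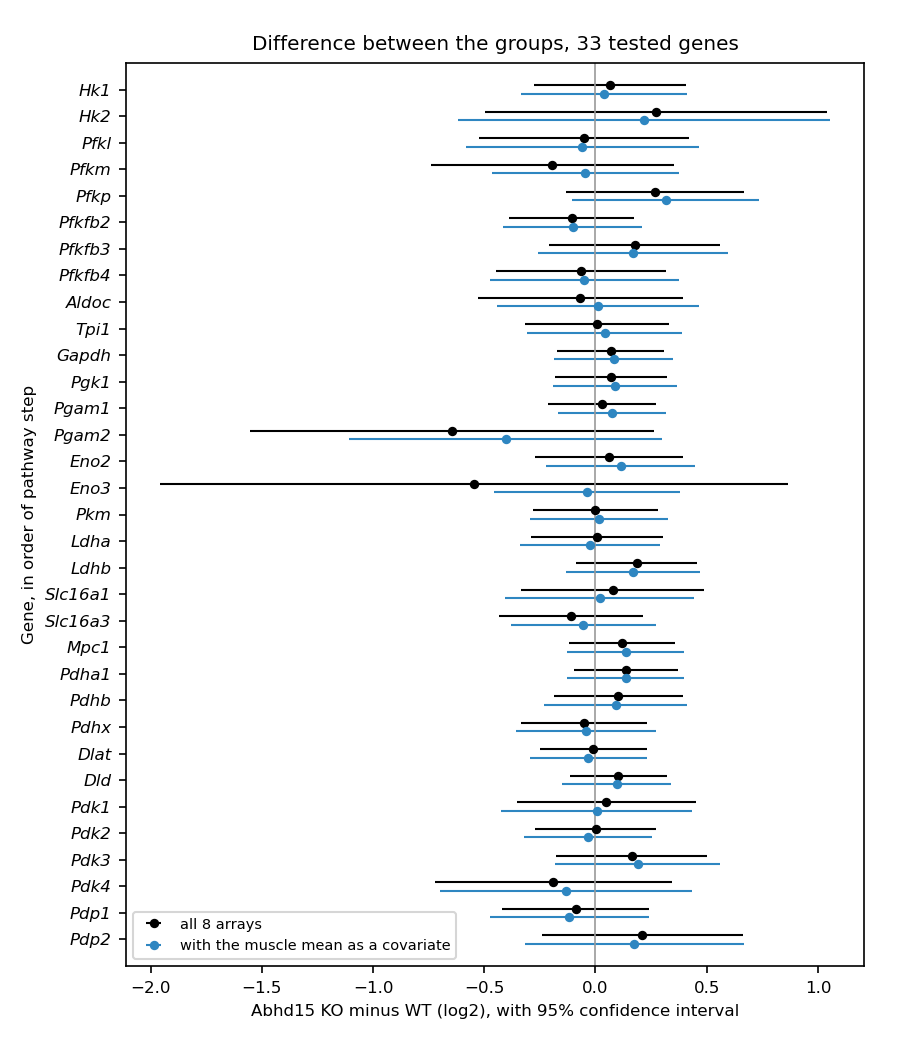
Each row is a tested gene, in pathway order, with the difference Abhd15 KO minus WT (log2) and its 95% confidence interval from all 8 arrays (black) and with the muscle mean as a covariate (blue). All intervals include 0, and that of Eno3 shrinks from −1.96 to 0.87 to −0.46 to 0.38.

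The 29 members outside the muscle isoforms and Pgam1 lay close together. Their differences ran from −0.19 for Pdk4 to 0.27 for Hk2, with a median of 0.06, beside a median of 0.01 over all tested genes. Of these differences 19 were above 0 and 10 below, beside 51.7% above 0 over all tested genes. Those genes are described next in the order of the pathway. The heat map of the tested genes shows each array separately.

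**Figure D3:**
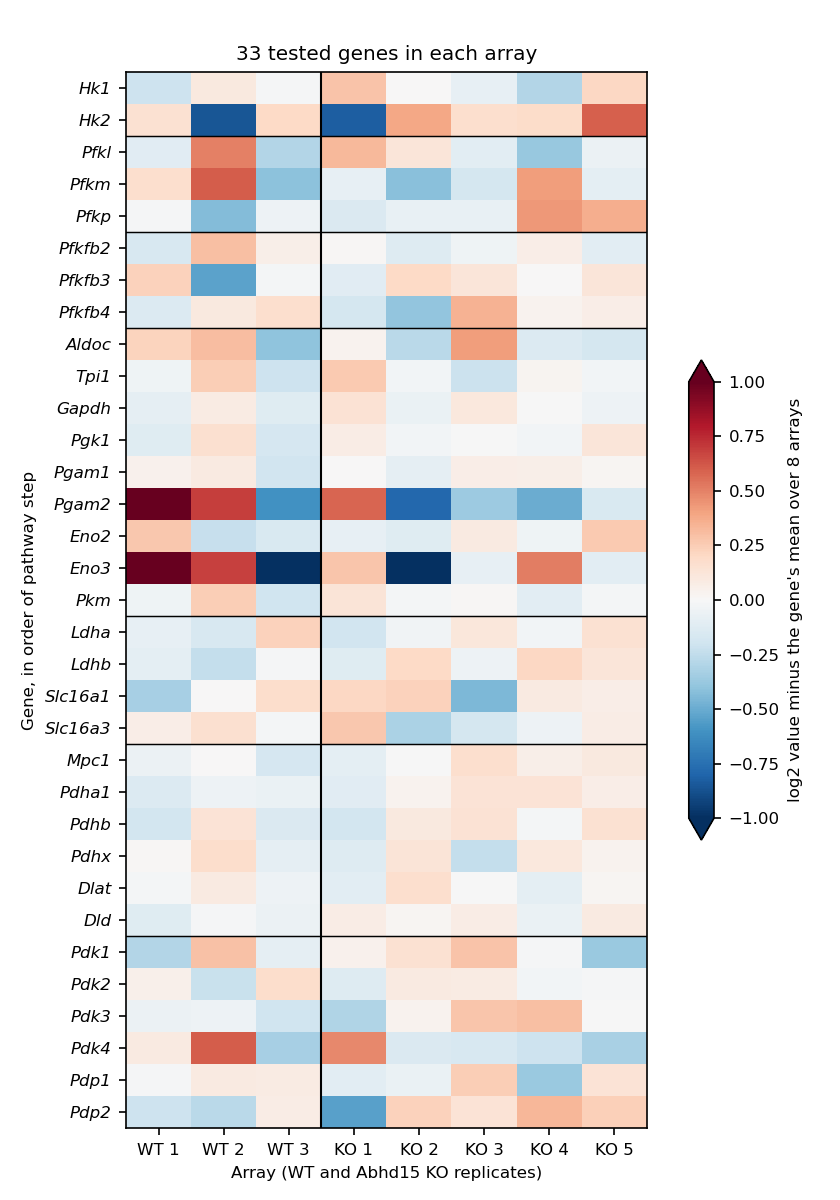
Rows are the 33 tested genes in pathway order, columns the 3 WT and 5 Abhd15 KO arrays, and colour the log2 value minus the gene's mean over the arrays, with colours saturated at 1 log2. Hk2 is lowest in WT 2 and KO 1 where Pdk4 is highest, and Eno3 is lowest in WT 3 and KO 2.

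Hk2, the insulin-responsive hexokinase of muscle and fat, had the widest range outside the muscle isoforms. It had WT values of 9.97, 8.97 and 10.02 and Abhd15 KO values of 9.00, 10.21, 9.99, 10.01 and 10.42, in replicate order. The arrays low in Angptl8 were the only values under 9.9, and each group held 1 of them. Hk2 differed by 0.27 (−0.50 to 1.04, exact permutation p = 0.5), by −0.07 without WT replicate 2 and by 0.50 without Abhd15 KO replicate 1. Without both arrays it differed by 0.16 (−0.21 to 0.53). Hk1, the hexokinase of most tissues, ranged from 5.12 to 5.70 and differed by 0.06 (−0.28 to 0.41).

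The windows of Hk2 and of Pdk4, a kinase of pyruvate dehydrogenase, are shown because these genes read opposite ways in the same arrays. They lie at chr6:82774405-82774704 and chr6:5496229-5496528, both on the minus strand of GRCm38.p6. Capitals mark ACGTG on either strand, the core letters of the hypoxia response element bound by HIF-1, which may overlap an E-box.
Hk2: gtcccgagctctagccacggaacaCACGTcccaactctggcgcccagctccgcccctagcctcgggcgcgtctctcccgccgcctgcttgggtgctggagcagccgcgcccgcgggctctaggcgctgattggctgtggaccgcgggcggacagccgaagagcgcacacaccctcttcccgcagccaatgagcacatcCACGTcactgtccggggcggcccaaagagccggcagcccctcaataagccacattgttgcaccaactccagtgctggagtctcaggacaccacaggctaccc
Pdk4: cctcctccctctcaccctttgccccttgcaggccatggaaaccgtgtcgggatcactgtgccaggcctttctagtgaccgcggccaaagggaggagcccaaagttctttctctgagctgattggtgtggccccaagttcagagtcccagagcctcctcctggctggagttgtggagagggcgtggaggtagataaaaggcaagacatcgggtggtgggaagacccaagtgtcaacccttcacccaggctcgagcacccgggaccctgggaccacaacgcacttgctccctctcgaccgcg
The Hk2 window holds 2 matches and that of Pdk4 holds 0. Other members lowest in the same arrays were mixed: Pfkfb3, Ldha, Pdk2 and Pdp2 hold ACGTG, and Pfkp and Ldhb are not among the genes that do. Of the others highest there, Pkm and Slc16a3 hold it and Pfkl and Tpi1 do not. Of the 38 listed genes with a window, 19 (50%) hold ACGTG in at least 1 window, beside 21.8% of all genes in the table. These shares are not on equal terms, because a gene with more windows has more chances of a match. The 38 genes have 58 windows, and the 27025 genes in the table have 32851. Many glycolytic genes are textbook HIF-1 targets, and a match is not a bound site. Hif1a itself ranged from 6.66 to 7.02 and differed by 0.04 (−0.22 to 0.29).

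Among the phosphofructokinases, Pfkp, the platelet form, had the lowest p. It stood at 8.24, 7.82 and 8.20 in the WT arrays and at 8.11, 8.18, 8.18, 8.69 and 8.61 in the Abhd15 KO arrays, by replicate number. Abhd15 KO replicates 4 and 5 were above all WT arrays, and the other 3 lay within the WT range. The difference was 0.27 (−0.13 to 0.67, exact permutation p = 0.268), and 0.13 without WT replicate 2.

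Pfkl, the liver form, read 9.09, 9.71 and 8.91 in WT and 9.53, 9.33, 9.10, 8.83 and 9.14 in Abhd15 KO, in replicate order. Its highest arrays, Abhd15 KO replicate 1 and WT replicate 2, were the lowest in Hk2. It thus read opposite to Hk2, and is named here after its values were seen. Its difference was −0.05 (−0.52 to 0.42), and 0.18 without WT replicate 2.

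The PFKFB enzymes make and break down fructose 2,6-bisphosphate, the activator of phosphofructokinase. Pfkfb3, the form with mostly kinase activity, gave 9.96, 9.19 and 9.70 across the WT arrays and 9.61, 9.92, 9.85, 9.73 and 9.84 across the Abhd15 KO arrays, in replicate order. Its lowest arrays were again WT replicate 2 and Abhd15 KO replicate 1. It differed by 0.18 (−0.21 to 0.56, exact permutation p = 0.411), by 0.01 (−0.31 to 0.32) without both of these arrays and by −0.04 without WT replicate 2. Pfkfb2 differed by −0.11 (−0.39 to 0.18) and Pfkfb4, which read only 3.22 to 3.97, by −0.07 (−0.45 to 0.32).

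Of the enzymes from aldolase to pyruvate kinase, Gapdh, Pgk1, Tpi1 and Pkm each spanned less than 0.5 log2. Gapdh spanned 12.02 to 12.29 and differed by 0.07 (−0.17 to 0.31), Pgk1 spanned 10.55 to 10.88 and differed by 0.07 (−0.18 to 0.32), and Tpi1 spanned 9.73 to 10.21 and differed by 0.01 (−0.32 to 0.33). Pkm, the pyruvate kinase of adipose tissue and muscle, read 10.96 ± 0.23 in WT and 10.96 ± 0.08 in Abhd15 KO (SD, n = 3 and 5). The shared Aldoa and Aldoart1 probe set read 6.58 ± 0.30 and 6.70 ± 0.34 (exact permutation p = 0.643).

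Aldoc and Eno2, the forms best known from brain, read 2.98 to 3.79 and 2.80 to 3.29, near the dim limit, and differed by −0.07 (−0.53 to 0.39) and 0.06 (−0.27 to 0.39). Gapdh, Pgam1 and Ldha have processed pseudogenes or close copies, so their probe sets may read more than the named gene and are uncertain for that reason. Gapdh had 3 probe sets of its own, with differences of 0.07, 0.09 and 0.21.

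Lactate dehydrogenase is a tetramer of A and B subunits. Ldhb, the heart subunit, had WT values of 9.33, 9.19 and 9.41 and Abhd15 KO values of 9.31, 9.63, 9.38, 9.63 and 9.55, in replicate order. Abhd15 KO replicates 2, 4 and 5 lay above all WT arrays, and replicates 1 and 3 within them. It differed by 0.19 (−0.09 to 0.46, exact permutation p = 0.125).

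Ldha, the muscle subunit, read 6.31, 6.24 and 6.63 in WT and 6.20, 6.36, 6.51, 6.37 and 6.55 in Abhd15 KO, in replicate order. The groups overlapped almost fully, and the difference was 0.01 (−0.29 to 0.30). Slc16a1, the lactate and pyruvate transporter MCT1, ranged from 10.07 in Abhd15 KO replicate 3 to 10.75 in replicate 2 and differed by 0.08 (−0.33 to 0.49). Slc16a3, the lactate exporter MCT4 of glycolytic muscle, lay near the dim limit at 2.59 to 3.17.

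The genes of the pyruvate dehydrogenase complex each spanned less than 0.5 log2 over the 8 arrays. Pdha1, the subunit that the kinases phosphorylate, stood at 11.01, 11.10 and 11.08 in the WT arrays and at 11.03, 11.18, 11.29, 11.28 and 11.21 in the Abhd15 KO arrays, by replicate number. The last 4 lay above all WT arrays, and Abhd15 KO replicate 1 lay within them. The difference was 0.14 (−0.10 to 0.37, exact permutation p = 0.0893).

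Pdhb, its partner subunit, differed by 0.10 (−0.19 to 0.39) and, without WT replicate 2 and Abhd15 KO replicate 1, by 0.26 (−0.02 to 0.54), with 0 members past the adjusted threshold in that fit either. Dld, the dihydrolipoamide dehydrogenase that this complex shares with others, differed by 0.10 (−0.11 to 0.32), Dlat, the acetyltransferase core, by −0.01 (−0.25 to 0.23) and Pdhx, which anchors Dld to that core, by −0.05 (−0.33 to 0.23). Mpc1 read 11.81 ± 0.09 in WT and 11.93 ± 0.10 in Abhd15 KO (SD, n = 3 and 5), a difference of 0.12 (−0.12 to 0.36). Over these 6 genes 4 differences were above 0, beside 51.7% of all tested genes, with a median of 0.10.

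Pdk4, the pyruvate dehydrogenase kinase that fasting induces in muscle and fat, stood apart in the arrays low in Angptl8. It gave 11.68, 12.19 and 11.25 across the WT arrays and 12.06, 11.45, 11.43, 11.38 and 11.27 across the Abhd15 KO arrays, in replicate order. WT replicate 2 and Abhd15 KO replicate 1 were the only values above 12. It differed by −0.19 (−0.72 to 0.34, exact permutation p = 0.554), by 0.05 without WT replicate 2 and by −0.08 (−0.45 to 0.28) without both arrays.

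Pdk3, a kinase little used in most adult tissues, had the lowest p among the regulators, at low values. It read 3.27, 3.28 and 3.13 in WT and 3.03, 3.36, 3.61, 3.63 and 3.32 in Abhd15 KO, in replicate order. Abhd15 KO replicate 1 was the lowest array of all and the other 4 lay above every WT array. The difference was 0.16 (−0.18 to 0.50, exact permutation p = 0.304). Pdk1 and Pdk2, kinases of many tissues, differed by 0.05 (−0.35 to 0.45) and 0.00 (−0.27 to 0.27).

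Pdp2, the phosphatase isoform known in rats from liver and fat, read 7.16, 7.10 and 7.44 in WT and 6.82, 7.60, 7.50, 7.69 and 7.60 in Abhd15 KO, in replicate order, and is named after its values were seen. Its lowest arrays were Abhd15 KO replicate 1 and WT replicate 2. It differed by 0.21 (−0.24 to 0.66), by 0.30 (−0.02 to 0.62) without both of these arrays, and by 0.37 without Abhd15 KO replicate 1, at an unadjusted p under 0.05 (5.02% of all genes tested in that fit) and not past the adjusted threshold (limma). Pdp1, the phosphatase of muscle, differed by −0.09 (−0.42 to 0.24).

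The opposite readings of Hk2 and Pdk4 were part of a wider split that did not follow the labels. Among 28 pairs of arrays, WT replicate 2 and Abhd15 KO replicate 1 most often held the 2 lowest or the 2 highest values of a member. They held the 2 lowest in 7 members (Hk2, Pfkp, Pfkfb3, Ldha, Ldhb, Pdk2 and Pdp2) and the 2 highest in 5 (Pfkl, Tpi1, Pkm, Slc16a3 and Pdk4). That makes 36.4% of the members, beside 17.3% of all tested genes. Over all tested genes this pair was also the most frequent of the 28, with Abhd15 KO replicates 4 and 5 next at 10.6%. Its first place is thus not particular to the members. Abhd15 KO replicate 2 and WT replicate 3, both low in muscle genes, came second with 6 members, 18.2% beside 8.61% of all tested genes (Pfkm, Aldoc, Pgam1, Pgam2 and Eno3 lowest, Pdk2 highest).

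The residual SD inside the groups, computed without Abhd15 KO replicate 1 and WT replicate 2, was smaller in 24 of 33 members and in 51.7% of all tested genes. In Hk2 it went from 0.56 to 0.18 and in Pdk4 from 0.37 to 0.17, which restates that these arrays hold their extreme values. In Eno3 it went from 1.06 to 1.25 and in Slc16a1 from 0.27 to 0.31. With these arrays left out, 0 members reached an unadjusted p under 0.05, where 3.93% of all tested genes did, and the median over the 29 members was 0.07. Other genes known to respond to feeding or stress differed in the same arrays, among them Fos at 5.64 and 4.96 against 2.58 to 3.64 elsewhere. Some markers of other cells were highest in these arrays too, but not all. The mean of 8 macrophage genes, all above the dim limit throughout, was 6.12 and 5.91 there against 5.06 to 5.74 elsewhere. Single macrophage genes did not all do so, and Mpeg1 was highest in WT replicate 3, at 5.58. The erythroid gene Slc4a1 read 3.81 and 4.38 against 2.60 to 3.34. The mean of 3 nerve genes was 3.30 and 3.12 in the pair and highest in Abhd15 KO replicate 5, at 3.49. The part of these genes in the members' values was not tested.

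**Figure D4:**
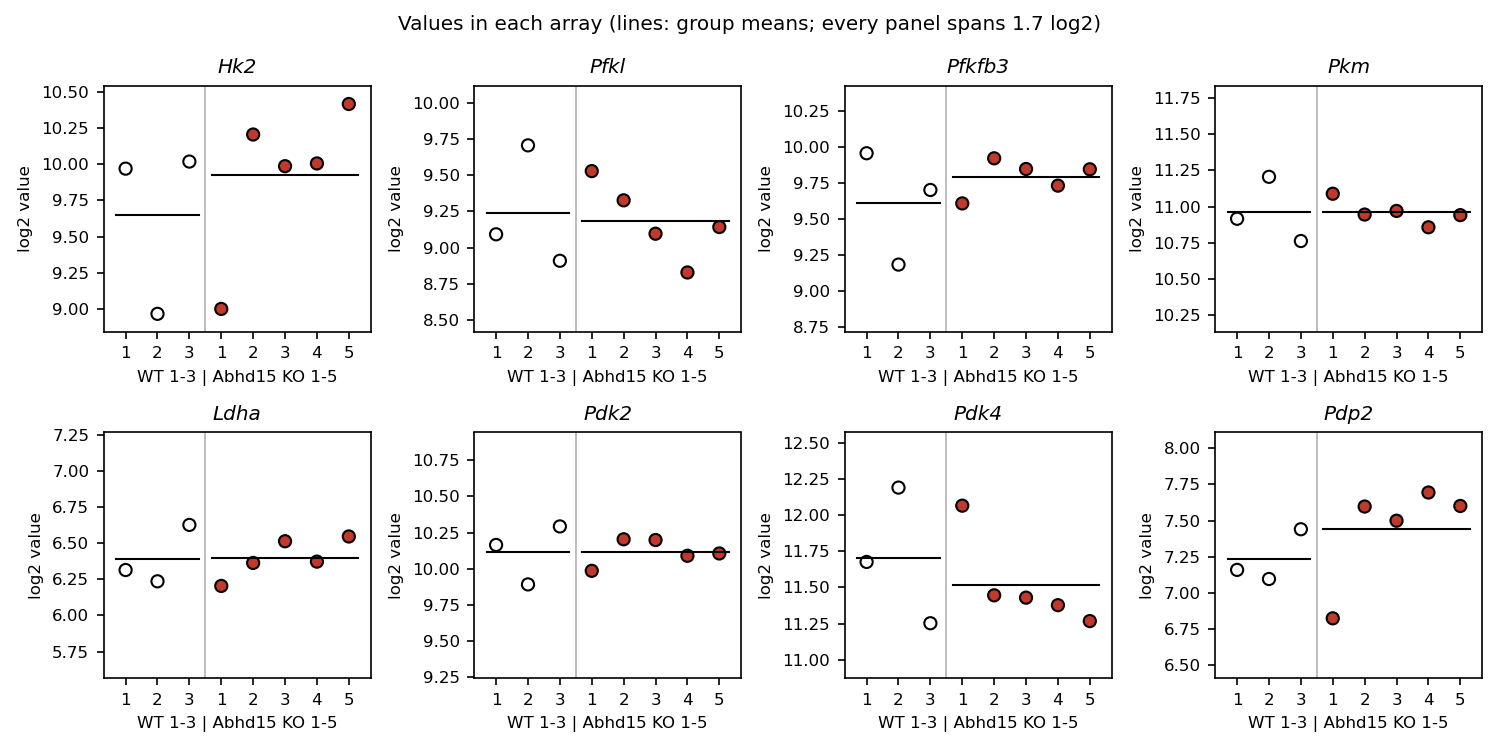
Each panel gives the log2 value of a gene in WT replicates 1 to 3 (open) and Abhd15 KO replicates 1 to 5 (filled), with lines at the group means and axes of equal span. WT 2 and KO 1 lie lowest in Hk2, Pfkfb3, Ldha, Pdk2 and Pdp2 and highest in Pfkl, Pkm and Pdk4.

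The balance of isoforms was compared within each array for the 4 pairs with both genes measured, which shows unequal change only. The log2 ratio of Pgam2 to Pgam1 differed by −0.68 between the groups, that of Pfkm to Pfkl by −0.14, that of Ldhb to Ldha by 0.18 and that of Hk2 to Hk1 by 0.21. After adjustment over the 4 pairs the exact permutation p was 0.393 for Pgam2 to Pgam1 and for Ldhb to Ldha, and 0.696 for the other pairs. The intervals, from limma on these ratios, ran from −1.59 to 0.24 for Pgam2 to Pgam1, from −0.84 to 0.55 for Pfkm to Pfkl, from −0.20 to 0.55 for Ldhb to Ldha and from −0.82 to 1.23 for Hk2 to Hk1. Single arrays moved these ratios. Without 1 array at a time, Pgam2 to Pgam1 ran from −1.09 (without WT replicate 3) to −0.35 (without WT replicate 1), and Pfkm to Pfkl from −0.35 (without Abhd15 KO replicate 4) to −0.02 (without Abhd15 KO replicate 2). Hk2 to Hk1 was −0.20 without WT replicate 2, 0.50 without Abhd15 KO replicate 1 and 0.09 without both. Ldhb to Ldha ran from 0.11 (without WT replicate 3) to 0.24 (without Abhd15 KO replicate 3).

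Other genes of glucose and pyruvate handling were read from a list of 21, of which 19 had a probe set of their own and 17 were tested. With limma, 0 passed the adjusted threshold, as did 0 of all tested genes. At an unadjusted p under 0.05 there were 0, beside 3.99% of all tested genes. Their differences were above 0 in 10 and below in 7, with a median of 0.02, beside 51.7% above 0 over all tested genes. The lowest p belonged to Minpp1, a phosphatase of inositol phosphates that also acts on 2,3-bisphosphoglycerate, at 0.20 (−0.09 to 0.49), and to Pcx, the mitochondrial pyruvate carboxylase, at −0.16 (−0.41 to 0.09). Hkdc1 and Fbp1 were not tested because they lay under the dim limit in most arrays.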

How the data were processed

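The authors deposited log2 values, 1 for each probe set on each array. The submitters' processing notes name RMA and oligo, while Expression Console appears in the design text, so which program made the table is not settled. RMA's quantile normalization hides a change shared by most genes. The table held 41345 probe sets from 0.49 to 13.3, the median of an array was 3.00 to 3.04, and any 2 arrays correlated at 0.964 to 0.975, so no array copied another. The build behind the probes was not known here. Arrays give no read depth, and their number limits the precision.

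Gene symbols came from the platform annotation, checked by Entrez identifier against RefSeq GRCm38.p6 (23328 matched, 0 symbols updated): 23521 had 1 symbol, 1814 several and 16010 none. The probe set of highest mean stood for a gene. The dim limit was the 95th percentile of 1400 olfactory and vomeronasal receptor probe sets. Differences were fitted in limma 3.58.1 under R 4.3.3 (lmFit and eBayes, 1 term for the group), with Benjamini-Hochberg adjustment over 13223 genes. Single values had an exact two-sided permutation test over 56 splits. The procedure was tested on simulated data.

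The members and lists were chosen with earlier results of these data known. Values in every array are given for the muscle isoforms, members following muscle, Hk2, Ldha, Ldhb, Pdk4 and the member of lowest p in each of the pathway's steps. The alternatives were the replicate number as a block, leaving out each array or the pair low in Angptl8, other filters, normalization, centring, priors and weights, all probe sets of a gene, and the muscle mean as a covariate. The planned ratio of Eno3 to Eno1 was left out because Eno1 was not analysed here.

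Lists of macrophage, erythroid and nerve markers were read alongside. The macrophage mean was 5.77 ± 0.34 in WT and 5.55 ± 0.32 in Abhd15 KO (SD, n = 3 and 5), the 1 erythroid gene with a probe set of its own read 2.60 to 4.38, and 3 nerve genes averaged 2.86 to 3.49 log2.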

Additional observations from a re-analysis of the deposited data

Results flagged for a closer look

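In the 5 Abhd15 KO arrays, 4 of 33 members had an array set apart from the others by more than Dixon's limit of 0.71 (gap over range), beside 5.2% of all tested genes, and chance gives about 1 in 20. With the 4 isoform ratios, which are built from the same members, 5 of 37 values did so. Groups of 3 are not checked. Abhd15 KO replicate 1 was apart in Pdk4 (0.777, at 12.06 against 11.27 to 11.45), in Pdp2 (0.776, at 6.82 against 7.50 to 7.69) and in the ratio of Hk2 to Hk1 (0.851, at −1.10 log2 from its mean over all arrays against 0.24 to 0.48). Abhd15 KO replicate 2 was apart in Eno3 (0.711, at 5.44 against 6.96 to 7.58), and Abhd15 KO replicate 3 in Slc16a1 (0.759, at 10.07 against 10.59 to 10.75).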

How the results depend on the processing

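The count of 0 calls over all genes, members and other pathway genes was the same under every alternative run. Members at an unadjusted p under 0.05 numbered 0 in all settings but without WT replicate 3 (2, Pgam2 and Eno3) and without Abhd15 KO replicate 1 (1, Pdp2), so leaving out an array gave 0 to 2. Members following muscle numbered 2, and 4 at a limit of 0.7 or without the pair low in Angptl8, 1 at a limit of 0.9 or with group means kept, and 1 to 4 without single arrays. Without WT replicate 1 they were 4, without WT replicate 3 or Abhd15 KO replicate 2 they were 1, and Eno3 was among them in every setting run. The median over the 29 members stayed within 0.02 and 0.12 when arrays were left out, and Pdhb was the only member whose difference moved by more than its residual SD (0.26 without the pair). With the replicate number as a block, 0 members passed, their median was 0.06, and Hk2 to Hk1 differed by −0.03. Same-numbered arrays did not vary together (correlations of −0.258, −0.0981 and 0.0186 over all tested genes), so they share a number only. The fit without WT replicate 1, 2 or 3 leaves 2 WT arrays. With arrays this few, the members' intervals had a median half-width of 0.33 log2, before any adjustment over genes. This is not a limit of detection. Eno3, at −0.55 (−1.96 to 0.87), differed by more and was still unresolved.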

Other observations

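Probe sets shared with neighbouring transcripts stood outside the comparison. The probe set shared by Hk1 and Hk1os read 3.80 ± 0.08 log2 in WT and 3.37 ± 0.22 in Abhd15 KO (SD, n = 3 and 5, exact two-sided permutation p = 0.0357, unadjusted), while the probe set of Hk1 alone differed by 0.06. This shared probe set spanned 3.12 to 3.86, not far above the dim limit of 2.88. Its p was 1 of many computed over the members' probe sets, so it does not stand as a call. The probe set shared by Slc16a3 and Csnk1d read 6.44 ± 0.09 and 6.62 ± 0.22, and that of Slc16a3 alone differed by −0.11. The dimmer Mpc1 probe set read 7.09 ± 0.11 and 7.21 ± 0.20, a difference of 0.12, as did the brighter one.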
